A study of Mus musculus with 26 samples.

Results

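The 8 genes described here were Nfkbia, Nfkbiz, Tnfaip3, Bcl3, Cxcl1, Cxcl10, Ccl2 and Icam1, a set of genes known to be transcribed when the transcription factor NF-kB is active. They were taken by name from gene tables of RNA polymerase II (Pol II) signal in regenerating mouse liver. Of the 31804 gene entries of each table, 20933 had a unique name and an interval of at least 500 bp and were counted as measured, among them 7 of the 8 genes. Nfkbiz was listed with an interval of 269 bp and was kept out of the counts. The samples were livers of male C57BL6/J mice, wild type and 7 weeks old, from which 3 of 5 lobes had been removed. The lobes taken at the operation served as 0 h, and livers were collected at 3, 8, 16, 24, 36, 48 and 168 h, from 5 mice per time. The labels do not say whether the 5 livers were pooled, and each antibody had 1 library per time. Chromatin immunoprecipitation (ChIP-seq) was done for Pol II, C/EBPalpha and C/EBPbeta at all 8 times and for Egr1 at 36 h. An IgG mock sample of 0 h is not analysed here.

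NF-kB is held in the cytoplasm of a resting cell by inhibitor proteins of the IkB family. Signals from tumour necrosis factor, interleukin-1 or Toll-like receptors lead to destruction of the inhibitor, and the freed factor enters the nucleus. Its targets include its own inhibitors, which end the response, and chemokines and adhesion molecules, which bring leukocytes into the tissue. In liver, cytokines released by resident macrophages are known to act on hepatocytes soon after partial hepatectomy. C/EBPalpha and C/EBPbeta are related hepatocyte transcription factors, and Egr1 is an immediate early transcription factor.

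The promoters are shown first because each one matched held an NF-kB type sequence. RefSeq promoters of GRCm38.p6 were found for 6 of the 8 genes, with 2 for Tnfaip3, giving 7 promoters; Nfkbiz and Ccl2 were not matched. Each was read over the 250 bases before the gene start, on the strand of the gene. The 4 printed are those of an inhibitor, a neutrophil chemokine, an interferon-responsive chemokine and an adhesion molecule, and capitals mark every match to GGNNNTTCC on either strand.
Nfkbia (chr12:55492648-55492897, minus strand): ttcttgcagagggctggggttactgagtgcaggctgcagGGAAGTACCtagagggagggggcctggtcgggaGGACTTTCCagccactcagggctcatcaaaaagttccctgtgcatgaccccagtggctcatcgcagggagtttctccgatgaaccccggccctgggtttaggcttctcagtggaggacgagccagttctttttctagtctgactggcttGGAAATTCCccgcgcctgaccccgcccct
Cxcl1 (chr5:90890995-90891244, plus strand): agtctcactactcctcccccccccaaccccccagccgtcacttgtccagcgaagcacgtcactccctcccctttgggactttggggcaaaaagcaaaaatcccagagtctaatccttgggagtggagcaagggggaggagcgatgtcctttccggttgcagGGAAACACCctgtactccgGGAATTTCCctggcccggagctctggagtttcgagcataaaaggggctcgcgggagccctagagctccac
Cxcl10 (chr5:92348890-92349139, minus strand): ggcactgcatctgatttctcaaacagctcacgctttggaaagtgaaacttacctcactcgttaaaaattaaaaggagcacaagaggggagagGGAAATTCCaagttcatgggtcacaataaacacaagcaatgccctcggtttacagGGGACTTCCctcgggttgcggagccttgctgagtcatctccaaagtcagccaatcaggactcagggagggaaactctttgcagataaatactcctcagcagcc
Icam1 (chr9:21015690-21015939, plus strand): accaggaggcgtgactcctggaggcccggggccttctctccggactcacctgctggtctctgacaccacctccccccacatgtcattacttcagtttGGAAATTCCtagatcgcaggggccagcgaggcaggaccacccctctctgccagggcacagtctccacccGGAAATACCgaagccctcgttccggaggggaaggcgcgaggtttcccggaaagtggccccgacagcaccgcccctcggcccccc

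GGNNNTTCC, a loose form of the kB motif bound by NF-kB, was present in 7 of the 7 promoters and in 15.7% of the 32851 promoters of the same length. The genes were chosen as NF-kB genes, so the count describes them and carries no test. Nfkbia had 3 places, at -211, -178 and -29 counted from the gene start to the first base. Cxcl1 had 2, at -89 and -70, Cxcl10 had 2, at -158 and -103, and Icam1 had 2, at -153 and -84. GGAAATTCC stood in the promoters of Nfkbia, Cxcl10 and Icam1, and its reverse complement GGAATTTCC in those of Cxcl1 and Tnfaip3, so this site was present in 5 of the 6 genes. The promoters of Tnfaip3 held 2 places and 1 place, and that of Bcl3 held 1. TTGCNNAA, a core form of the C/EBP motif searched on both strands, was in 0 of the 7 windows and in 9.56% of all promoters. That count says only that these letters are not in these windows.

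Pol II is given as the signal of a gene's interval divided by its width, called the level per bp. The interval begins 500 bp inside the gene. The deposited values are signed and can lie below 0. A level below 0.5 per bp was treated as not above background. How many reads each library held is unknown. Changes are log2 differences from the 0 h library after rescaling each library, setting negative values to 0 and adding 0.5, a scale on which the change of low genes is understated. All changes share the same single 0 h library, no time was replicated, and the batches in which libraries were made are not given, so batch and time cannot be told apart. In whole tissue, fewer cells of a type and less Pol II per cell cannot be told apart either.

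The libraries came from tissue with hepatocyte signal: the 6 hepatocyte markers measured were above 0.5 per bp in every library. At 3 h, 3 of the 6 were lower and 1 higher by 1 or more, with a median change of -1.01; Alb stood at 46.4 per bp at 0 h and 16.9 at 3 h, and Apoa1 at 368 and 651. Of the 5 cholangiocyte markers measured, 4 or 5 were at or below 0 in each library. The exception was Sox9, at 5.74 per bp at 16 h and 0.203 at 48 h. The 3 h library stood apart in that its signal summed to -1.63e+07 over all entries and 50.6% of entries were below 0, against 38.4% to 44.3% in the other 7. Relative to 0 h, the rescaling raised or lowered the log2 values by 0.26, 0.33, -0.32, 0.41, -0.01, 0.33 and 0.97 at 3, 8, 16, 24, 36, 48 and 168 h. The limma spline test over the 8 times covered 4761 genes that were above 0.5 per bp, after rescaling, in at least 2 libraries. It called 1 gene, Rgs16, or 0.021% of those tested, and 458 genes (9.62%) had an unadjusted p under 0.05.

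Of the 7 genes measured, 5 were tested and 0 were called by limma; 1, Cxcl10, had an unadjusted p under 0.05. Their adjusted p-values ran from 0.506 to 0.753. The scatter of the 8 libraries about the fitted curve, the only error these data offer, had an SD of 0.31 for Nfkbia, 0.85 for Bcl3, 1.06 for Cxcl1, 0.77 for Cxcl10 and 0.68 for Icam1 on the log2 scale. The median SD over all genes tested was 0.48. Every value below is therefore a description of single libraries.

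The genes fell apart into several patterns. Bcl3 and Cxcl1 had Pol II in every library and their lowest or near lowest levels at 0 h. Nfkbia had its highest level as deposited at 0 h, whereas after rescaling 3 h was higher (13.8 against 12.4 per bp). It stayed among the genes with most Pol II throughout. Cxcl10 was above 0.5 per bp at 0 h and 36 h only. Icam1 was low but above 0.5 per bp in 5 of the 7 later libraries, and Tnfaip3 and Ccl2 never passed 0.5 per bp.

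**Figure D1:**
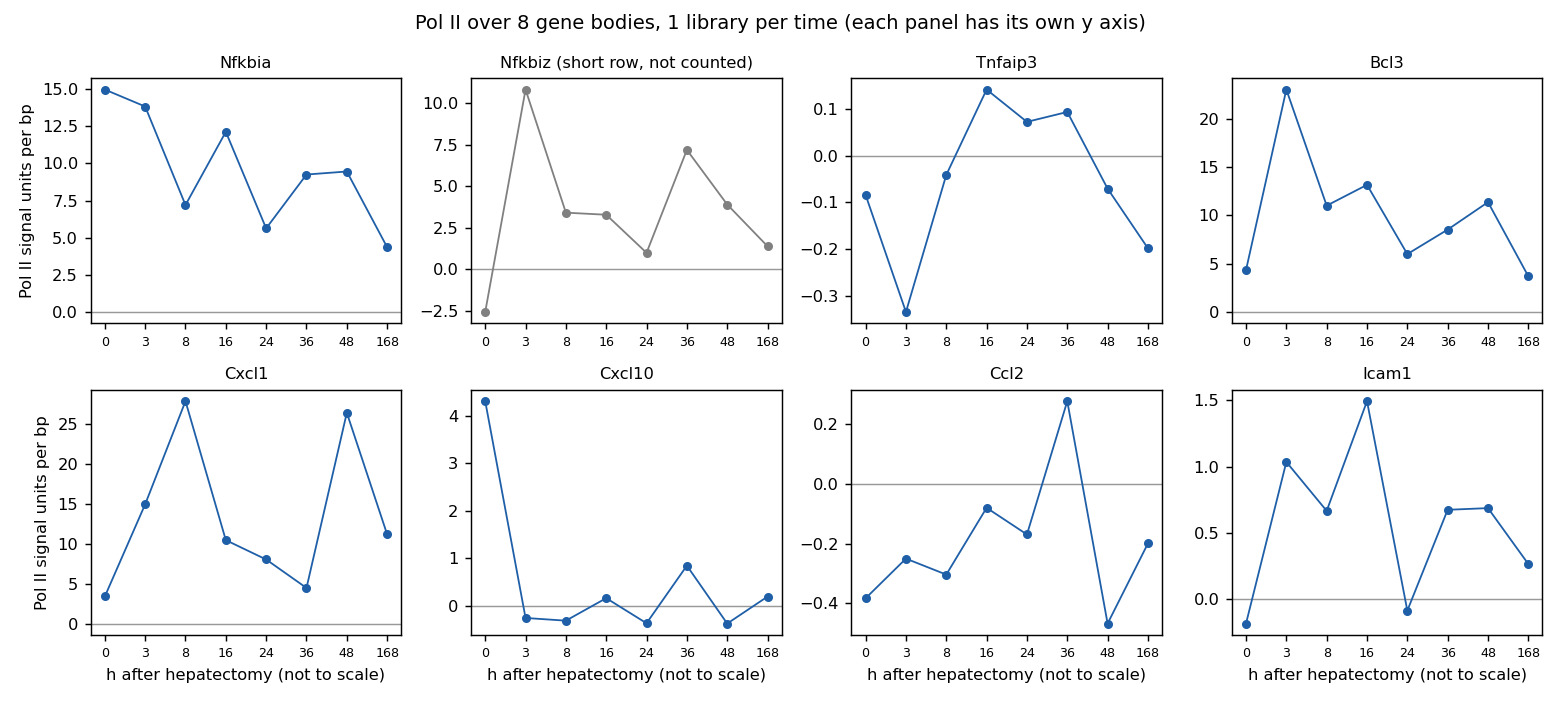
Pol II level per bp (vertical axis, signal units per bp, linear, a scale of its own in each panel) against time after partial hepatectomy (horizontal axis, the 8 times evenly spaced), 1 panel per gene and 1 point per library, with no error bars because no time was replicated. Bcl3 peaked at 3 h with 23.0 and Cxcl1 at 8 h with 27.9, Cxcl10 stood at 4.32 at 0 h and at most 0.842 later, and Tnfaip3 and Ccl2 lay about 0.

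The IkB family genes and Tnfaip3 come first. Nfkbia encodes IkBalpha, the inhibitor that binds NF-kB in the cytoplasm and is itself an NF-kB target. Its mm9 interval was chr12:56590405-56593044, on the minus strand. The level was 15.0 per bp at 0 h, then 13.8 (3 h), 7.20 (8 h), 12.1 (16 h), 5.63 (24 h), 9.25 (36 h), 9.45 (48 h) and 4.36 (168 h). The 0 h and 3 h libraries were the highest and the 24 h and 168 h libraries the lowest. The changes were 0.14, -0.69, -0.60, -0.95, -0.67, -0.32 and -0.77 in order of time, none of them past 1 on the log2 scale. Without rescaling the 3 h change was -0.11, and those of 8 h (-1.01), 24 h (-1.34) and 168 h (-1.67) passed -1. In each library Nfkbia lay between the 98.0 and 99.0 percentile of all measured genes. The limma test gave an adjusted p of 0.651.

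Bcl3 encodes a nuclear member of the IkB family that binds p50 and p52 on DNA. Its mm9 interval was chr7:20393815-20407568, on the minus strand. The level was 4.33 per bp at 0 h, then 23.0 (3 h), 11.004 (8 h), 13.2 (16 h), 5.99 (24 h), 8.52 (36 h), 11.4 (48 h) and 3.69 (168 h). The 3 h library was the highest, 5.31 times the 0 h level as deposited, and the 0 h and 168 h libraries were the lowest. The changes were 2.52, 1.55, 1.17, 0.79, 0.88, 1.60 and 0.66, so that Bcl3 was past 1 at 3, 8, 16 and 48 h. With a pseudocount of 5 only the 3 h change (1.70) was past 1. The last change was -0.21 without rescaling. The curve over time did not pass the limma test, with an adjusted p of 0.753.

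Nfkbiz encodes IkBzeta, another nuclear IkB protein. Its interval, chr16:55817860-55818128 in mm9 on the minus strand, covers only 269 bp of a gene that RefSeq gives 27580 bp, so the gene start taken from it may not be the start in use. The level there was -2.56 per bp at 0 h, then 10.8 (3 h), 3.41 (8 h), 3.29 (16 h), 0.997 (24 h), 7.19 (36 h), 3.90 (48 h) and 1.39 (168 h). The 0 h library was below 0 and the 7 later ones above it, with 3 h the highest. A value over so short an interval rests on little sequence, and no fold was formed against a level below 0.

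Tnfaip3 encodes A20, a ubiquitin-editing enzyme that stops signalling from the tumour necrosis factor receptor. Its interval was chr10:18720720-18731269 in mm9, on the minus strand. The levels were -0.084, -0.334, -0.041, 0.141, 0.072, 0.093, -0.071 and -0.198 per bp in order of time. None was above 0.5 per bp, which was also true of 70.2% of all measured genes. Tnfaip3 was not tested, and a change was not detectable over this interval. It is 10550 bp wide, whereas RefSeq gives the gene 14501 bp, so part of the gene was not covered.

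Among the chemokines, Cxcl1 encodes a ligand of the receptor CXCR2 that draws neutrophils. Its mm9 interval was chr5:91320807-91322139, on the plus strand. The level was 3.40 per bp at 0 h, then 15.0 (3 h), 27.9 (8 h), 10.5 (16 h), 8.05 (24 h), 4.47 (36 h), 26.5 (48 h) and 11.2 (168 h). The libraries of 8 h and 48 h were the highest, separated by lower ones, and 0 h was the lowest. At 8 h the level was 8.21 times that of 0 h as deposited. The changes were 2.21, 3.16, 1.16, 1.50, 0.34, 3.08 and 2.49, past 1 at every later time but 36 h, and the 168 h change was 1.58 without rescaling. With a pseudocount of 5 those of 16 h (0.61) and 24 h (0.83) were no longer past 1. The adjusted p of limma was 0.547.

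Cxcl10 encodes a chemokine that draws T cells through the receptor CXCR3 and responds to interferon as well as NF-kB. Its mm9 interval was chr5:92776501-92777415, on the minus strand. The level was 4.32 per bp at 0 h, then -0.263 (3 h), -0.320 (8 h), 0.155 (16 h), -0.375 (24 h), 0.842 (36 h), -0.381 (48 h) and 0.188 (168 h). The 0 h library was the highest and the only other library above 0.5 per bp was that of 36 h. The changes were -3.03, -3.03, -2.76, -3.03, -1.77, -3.03 and -2.34, where -3.03 is the change to a value set to 0. Cxcl10 was 1 of 314 measured genes (1.5%) that were lower by 1 or more in all 7 later libraries. With a pseudocount of 5 the changes were -0.59 to -0.78 and none passed -1, and with 0.05 they were -2.28 to -6.18. The limma test gave an unadjusted p of 0.0353 and an adjusted p of 0.506.

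The Cxcl10 pattern rests on 1 library and a short interval. Among the 478 genes tested with intervals of at most 1500 bp, a bound chosen after seeing the data, the share lower by 2 or more was 8.37% at 3 h, 8.79% at 8 h and 15.1% at 168 h. Olfactory receptor genes, which liver is not known to use and which were added as a background after seeing the data, had levels at 0 h of up to 7.14 per bp, and 1 of 161 reached the level of Cxcl10. Macrophage and neutrophil markers also had their highest summed signal, as deposited, at 0 h: the summed level of 11 macrophage and Kupffer cell markers was 10.7 per bp at 0 h and 2.51 to 7.33 later, with 6 of 11 above 0.5 and Emr1, Cd163, Marco, Timd4 and Vsig4 at or below 0 at 0 h. After rescaling the macrophage sum was 8.85 at 0 h and 10.04 at 168 h. For 8 neutrophil markers the sum as deposited was 7.28 at 0 h and 0.444 to 4.59 later, with Ly6g and S100a9 at or below 0 and 1 gene, Camp, above 0.5 at 0 h. Of the T cell markers, Lck stood at 1.38 per bp at 0 h and at most 0.442 later, while Cd3e, Cd3d, Cd3g and Cd4 were at or below 0 at 0 h. The part of these cells in the result was not tested.

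Ccl2 encodes the chemokine that draws monocytes through CCR2. Its interval was chr11:81849580-81850954 in mm9, on the plus strand. The levels were -0.384, -0.251, -0.304, -0.080, -0.170, 0.278, -0.469 and -0.200 per bp in order of time. Only the 36 h library was above 0 and none was above 0.5 per bp, so Ccl2 was not tested.

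Icam1 encodes an adhesion molecule that binds leukocyte integrins and is made by endothelial cells and hepatocytes under inflammatory signals. Its mm9 interval was chr9:20820930-20833252, on the plus strand. The level was -0.185 per bp at 0 h, then 1.04 (3 h), 0.666 (8 h), 1.49 (16 h), -0.087 (24 h), 0.674 (36 h), 0.687 (48 h) and 0.265 (168 h). The 0 h and 24 h libraries were below 0 and the others above it. With the 0 h value set to 0, the changes were 1.62, 1.26, 1.58, 0.00, 1.08, 1.28 and 0.89. With a pseudocount of 5 none exceeded 0.27, and with 0.05 the 3 h change was 4.44. The adjusted p of limma was 0.710. Of 10 endothelial markers, 2 or 3 were above 0.5 per bp in each library and their summed level was 3.08 to 6.18, with Tie1 and Vwf at or below 0 in every library. Clec4g, a sinusoidal endothelial marker, stood at 1.52 to 3.09 per bp. Eng stood at 1.024 per bp at 0 h, 2.18 at 3 h and 3.02 at 16 h, and was highest in the same 3 h and 16 h libraries as Icam1. Other markers went the other way from 0 h to 3 h: Stab2 from 0.270 to -0.218 and Kdr from 0.526 to -0.358. At 3 h, 8 of the 10 were at or below 0. Clec4g was highest at 3 h and 36 h. The part of endothelial cells in the Icam1 values was not tested.

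**Figure D2:**
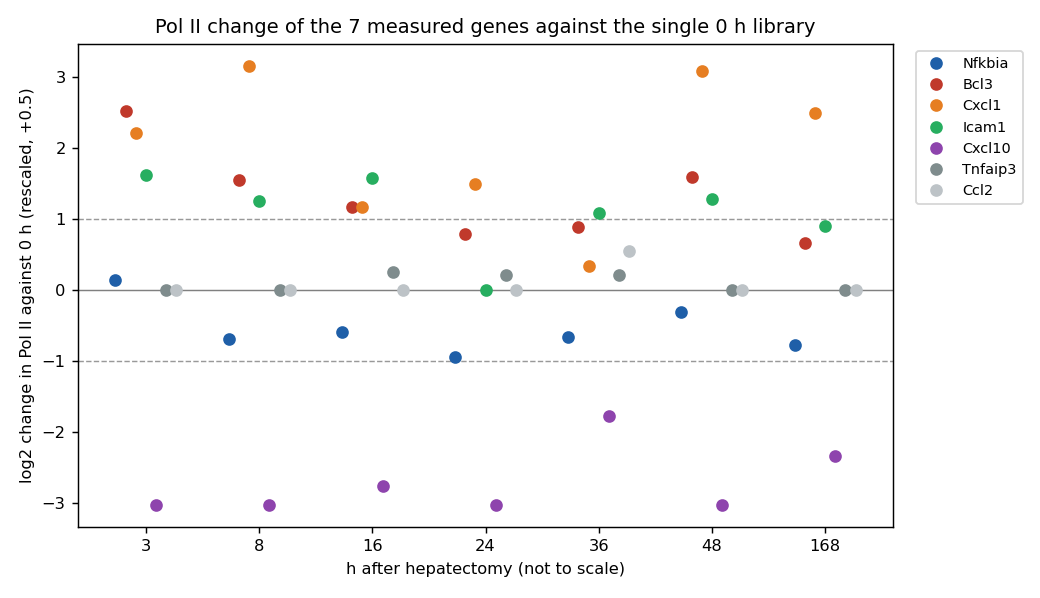
Log2 change of the Pol II level of the 7 measured genes in each later library (horizontal axis, 7 times) against the single 0 h library, after rescaling and with 0.5 per bp added; each point is 1 gene at 1 time and dashed lines mark a change of 1 and -1. Bcl3 was highest at 3 h (2.52), Cxcl1 at 8 h (3.16), and Cxcl10 was below -1 at all 7 times.

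Counted together, 3 of the 7 genes measured were higher by 1 or more at 3, 8, 16 and 48 h, and 1 was at 24, 36 and 168 h. The share of all measured genes higher by 1 or more was 4.78%, 3.3%, 3.65%, 4.92%, 4.27%, 3.58% and 5.48% in order of time. Over the genes tested, which have Pol II, that share was 14.5% to 18.4%. The 3 genes were Bcl3, Cxcl1 and Icam1 at each of these 4 times. The gene that was higher was Cxcl1 at 24 h and 168 h and Icam1 at 36 h. At every later time 1 of the 7 genes, Cxcl10, was lower by 1 or more, against 6.76%, 4.78%, 4.11%, 5.15%, 4.24%, 4.9% and 6.19% of measured genes in order of time and 10.6% to 21.4% of tested genes. A count of 1 of 7 is near the share of tested genes. The median change of the 7 was 0.14 at 3 h and between 0.00 and 0.34 at the later times, and that of all measured genes was 0.00 at each.

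The levels put Nfkbia first at 0 h, followed by Bcl3 (4.33), Cxcl10 (4.32) and Cxcl1 (3.40), which cannot be separated with 1 library. At 3 h and 16 h Bcl3 stood above Cxcl1 and Nfkbia. Cxcl1 stood above Bcl3 and Nfkbia at 8, 24, 48 and 168 h, and Nfkbia above both at 36 h. Icam1 was below Nfkbia, Bcl3 and Cxcl1 in every library.

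For the 3 genes whose log2 values spanned 2 or more, the genes of all tested with the most similar course over the 8 libraries were listed by Pearson r, as a description over points that share library and depth. For Bcl3 these were Itih4, Litaf and Hp, each at r = 0.986; Hp encodes haptoglobin, a plasma protein of the acute phase. Hp stood at 41.1 per bp at 0 h, 696 at 3 h and 32.5 at 168 h. For Cxcl1 they were Pzp (r = 0.955), Ahsg (0.938) and Il1r1 (0.904). Il1r1 encodes the signalling receptor of interleukin-1 and stood at 0.454 per bp at 0 h and 4.56 at 3 h. For Cxcl10 they were Notum (0.974), Cbx2 (0.966) and Olfr692 (0.959). The last is an olfactory receptor gene, with 2.01 per bp at 0 h and at most 0.811 later.

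The rest of the NF-kB pathway was followed in 7 lists of 99 genes, all of them measured. Of these, 34 were tested and 0 were called by limma, with 7 at an unadjusted p under 0.05 and a smallest adjusted p of 0.465. At 3 h, 11 of 99 (11.1%) were higher and 6 (6.06%) lower by 1 or more, against 4.78% and 6.76% of all measured genes, and without rescaling 9 were higher and 9 lower. Among tested genes those shares were 18.1% and 21.4%, and 34 of the 99 were tested. At the later times the higher and lower counts were 6 and 4 (8 h), 4 and 7 (16 h), 9 and 6 (24 h), 3 and 6 (36 h), 3 and 4 (48 h) and 9 and 9 (168 h), so 3 h was the time with the most genes higher. None of the 5 NF-kB subunits was past 1 in either direction at 3 h, and 1 of the 5 was tested.

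Receptors and adaptors made up 6 of the 11. The list of ligands and receptors had 3 of 12 genes higher, and that of adaptors 3 of 16, with 6 tested in each. The share of genes higher at 3 h was 4.78% of measured and 18.1% of tested genes. Il1r1 was higher by 2.52 and Tnfrsf1a, the main receptor of tumour necrosis factor, by 1.86, from 5.93 to 19.2 per bp. Of the adaptors, Tradd, which binds that receptor, went from 0.090 to 2.45 per bp (2.35), and Myd88, which serves the interleukin-1 and Toll-like receptors, from 0.357 to 1.82 (1.54). Among the other inhibitors, Nfkbib, encoding IkBbeta, went from -0.233 to 0.616 per bp (1.16). Nfkbib and Myd88 were not tested for a trend. Zc3h12a, encoding an RNase that degrades inflammatory mRNAs, went from 1.65 to 3.73 per bp (1.17).

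Chemokines other than the 3 described had 1 of 24 higher and 4 lower by 1 or more at 3 h. Cxcl12, a ligand of CXCR4, was at 10.01 per bp at 0 h and 0.770 at 3 h (-2.80). Ccl3 was at 2.71 and -0.669 (-2.46), and Ccl17 was at -0.654 and 0.507 (1.01). Ccl3 and Ccl17 were not tested for a trend. Neighbours of Cxcl1 in its cluster stayed low: Cxcl2 reached 1.12 per bp at 8 h, and Cxcl3 and Cxcl5 passed 0.5 in no library. Cxcl9 and Cxcl11, beside Cxcl10, and Ccl7, Ccl8, Ccl11 and Ccl12, beside Ccl2, were also at or below 0.5 in every library. In the list of adhesion molecules and other targets, 2 of 24 were higher and 2 lower. Ier3, an early response gene linked to cell survival, went from 1.27 to 10.4 per bp (2.81) and Bcl2l1, encoding the survival protein Bcl-xL, from 13.1 to 27.3 (1.29). Gch1 went from 2.69 to 0.437 (-1.55) and Icam2 from 1.85 to 0.231 (-1.48).

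**Figure D3:**
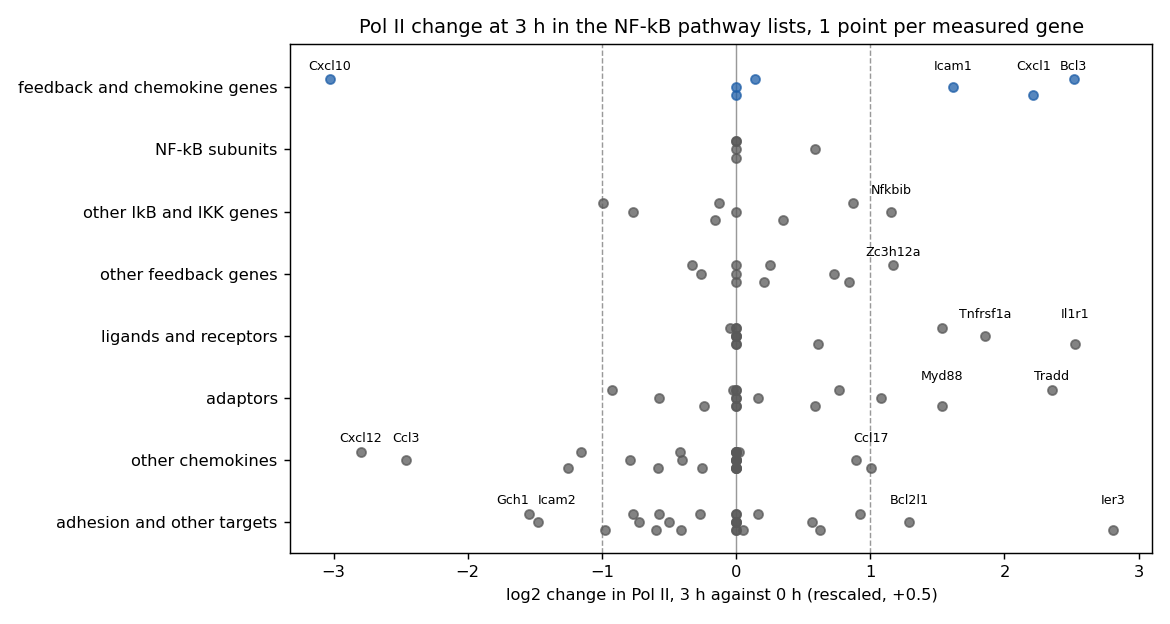
Log2 change of Pol II at 3 h against 0 h (horizontal axis) for each gene of the 7 pathway lists and the 7 feedback and chemokine genes measured (1 line of points per list), with dashed lines at 1 and -1; each point is 1 gene in 1 library against 1 library. Named points are those past 1 picked by a fixed rule, and Ier3 at 2.81 and Cxcl12 at -2.80 are the farthest from 0 in the pathway lists.

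The C/EBP region lists place both factors near these genes at nearly all times. A region counted as near when its edge was within 10 kb of the gene start. C/EBPalpha regions were near 6 of the 7 genes at all 8 times, and only Ccl2 had none. The share of measured genes near one was 34.2%, 38.2%, 36.1%, 35.7%, 32.9%, 36.3%, 31% and 35.5% in order of time, and that of tested genes 60.9% to 70.4%. All 8 lists held a region near 6 of 7 genes (18.7% of measured genes and 41.7% of genes tested). C/EBPbeta regions were near 6 of the 7 genes at 0, 16, 24, 36 and 48 h and 7 of 7 at 3, 8 and 168 h. The share of measured genes was 49%, 47.2%, 41.6%, 35.7%, 36.6%, 44.2%, 30.9% and 34.5%, and that of tested genes 60.6% to 80.7%. In all 8 lists, 5 of 7 had one near (21.5% of measured and 47.6% of tested genes). Since genes with Pol II have regions near them more often, the share of tested genes is the closer background, although Tnfaip3 and Ccl2 were not among them. Within 1 kb in all 8 lists, the count for C/EBPalpha was 1 of 7, at Icam1 (6.11% of measured and 13.8% of tested genes). For C/EBPbeta it was 0 of 7 (7.51% and 16.7%). The count of 1 of 7 is near the share of tested genes. Both counts use 1 start per gene, although Tnfaip3 had 2 promoters, and they could differ with its other start.

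**Figure D4:**
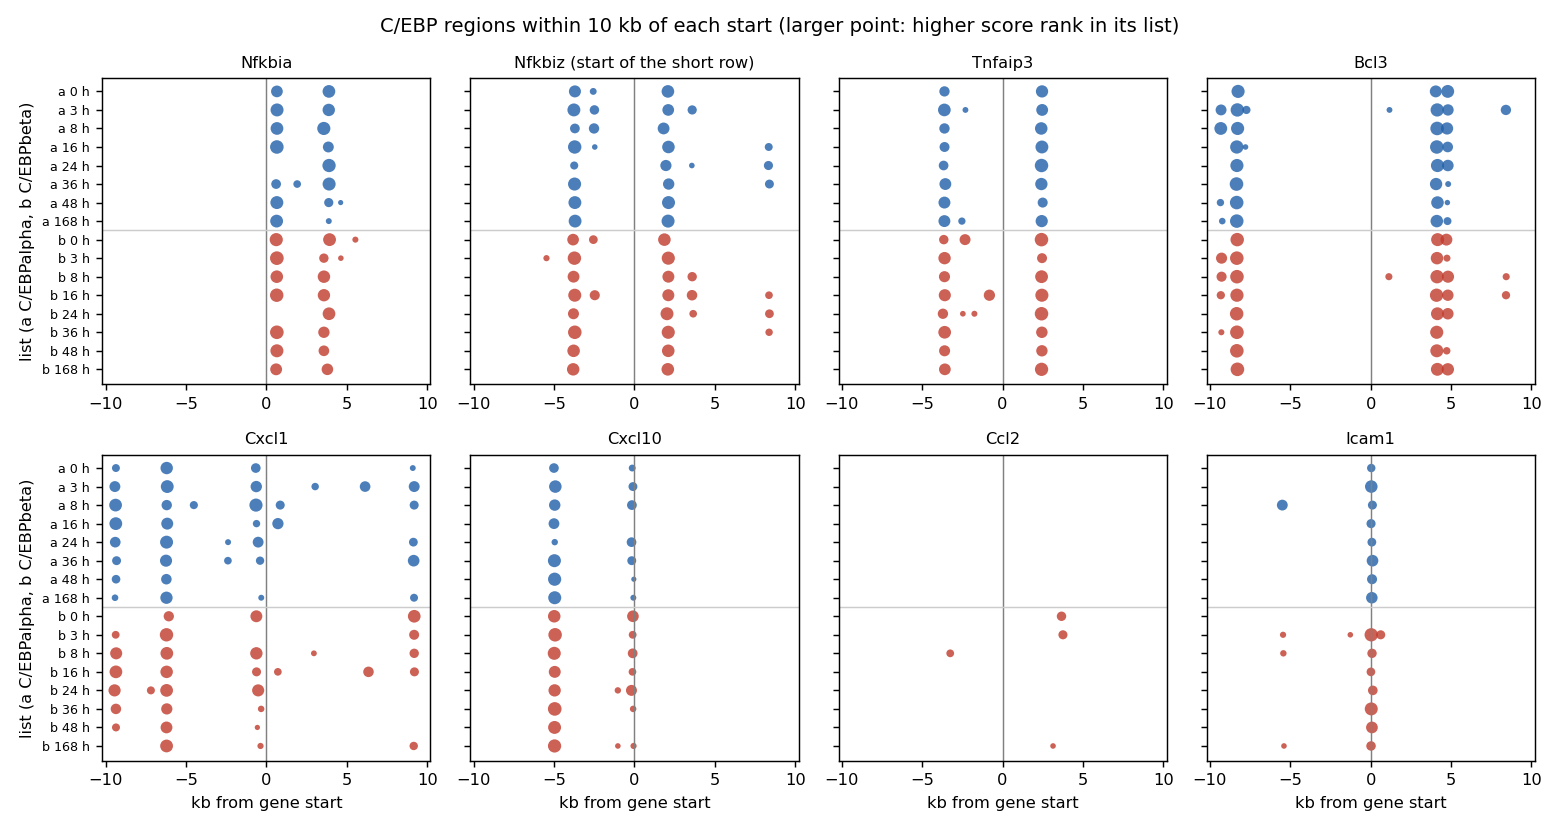
C/EBPalpha (a, blue) and C/EBPbeta (b, red) regions within 10 kb of each of the 8 genes: horizontal axis, distance of the region centre from the gene start in kb along the direction of the gene; vertical axis, the region lists by factor and time. Each point is 1 region, larger for a higher score rank in its list. Columns of points at one distance, such as those 6.2 kb before Cxcl1 and 5.0 kb before Cxcl10, are places found in all 16 C/EBP lists, and at the start of Icam1 only the C/EBPbeta region of 0 h is missing.

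Places were followed across the 16 C/EBP lists by joining each region to the next when their centres lay within 100 bp. That distance was chosen after seeing the data. A place can thus run over more than 100 bp, and its stated distance is the median of its centres. The score of a region is the authors' and is given as its percentile within its own list. At Nfkbia, the place 648 bp inside the gene (chr12:56592871-56592960, mm9) was in 7 lists of each factor, and both lacked it at 24 h. Its scores lay between the 42.2 and 96.8 percentile for C/EBPalpha and the 70.4 and 98.3 percentile for C/EBPbeta.

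Bcl3 had 2 places in all 16 lists, one 4132 bp inside the gene (chr7:20403888-20404028) and one 8314 bp before it (chr7:20416298-20416422). The second had scores at or above the 89.7 percentile in every list, so it was among the strong regions at every time. Neither lay within 1 kb of the start. Tnfaip3, which had no Pol II above 0.5 per bp, also had 2 places in all 16 lists. They lay 2440 bp after (chr10:18729263-18729375) and 3611 bp before (chr10:18735314-18735489) the start taken from its interval. That interval is 10550 bp wide, RefSeq gives the gene 14501 bp, and 2 promoters were matched. In GRCm38.p6 their windows were chr10:19015411-19015660 and chr10:19011964-19012213. The start taken may therefore not be the one in use. Distances from the other start were not computed, so the place 3611 bp before the start taken may lie near another start. Around the start taken for Nfkbiz, 2 places were in all 16 lists, at 2099 bp after and 3731 bp before it. The centres joined in the first ran from 2126 bp to 1810 bp after the start, so the lists may not share 1 site there.

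For Cxcl1 the place in all 16 lists was 6207 bp before the start (chr5:91314050-91314244). Nearer the start, a place 621 bp before it was listed for C/EBPalpha at 0, 3, 8, 16 and 24 h and for C/EBPbeta at 0, 8, 16, 24 and 48 h. At 36 and 168 h both factors had a region counted as a place 348 bp before the start. Its scores were between the 5.8 and 26.6 percentile for C/EBPalpha and the 7.6 and 9.9 percentile for C/EBPbeta. The C/EBPbeta region of 168 h (chr5:91319699-91320179) overlapped the place 621 bp before the start (chr5:91319633-91319825), so these 2 places are not apart in that list. The C/EBPalpha list of 48 h, which was the shortest with 20061 regions, and the C/EBPbeta list of 3 h had no region in the kilobase before Cxcl1. A region missing from a list does not show that the factor was absent. Cxcl10 had a place in all 16 lists 4966 bp before the start (chr5:92782826-92782958). Its place 113 bp before the start was in 7 lists of each factor, missing at 16 h for C/EBPalpha and at 48 h for C/EBPbeta. Both factors were thus listed there at 0 h, when Cxcl10 had Pol II, and at 3, 8, 24 and 168 h, when its level was below 0.5 per bp. The scores of this place lay between the 0.5 and 42.5 percentile for C/EBPalpha and the 7.6 and 67.5 percentile for C/EBPbeta.

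At Icam1 a place 76 bp after the start (chr9:20820405-20820642) was in all 8 C/EBPalpha lists and in the 7 later C/EBPbeta lists. At 0 h the nearest C/EBPbeta region lay 12724 bp away, although that list was the longest with 54574 regions. Its scores were between the 30.1 and 93.1 percentile at the 7 later times. No test was made of a single region missing from 1 list. Ccl2 had C/EBPbeta regions within 10 kb at 0, 3, 8 and 168 h, at 3129 to 3746 bp from the start, and no place was in more than 2 lists.

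Egr1 peaks of 36 h were within 10 kb of 2 of the 7 genes, against 11.4% of measured and 20.5% of tested genes, and within 1 kb of 0, against 3.03% and 5.46%. The count of 2 of 7 is near the share of tested genes. They lay 8708 bp from the start of Cxcl1 and 9779 bp from that of Cxcl10, with scores at the 18.3 and 15.1 percentile of the 9895 peaks.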

How the data were processed

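The study sequenced ChIP DNA from regenerating mouse liver, 26 samples in all; 25 deposited tables were used, and the mock sample is not analysed here. Per the submitters' processing notes, the tools were Bowtie 0.12.7 and MACS 1.4.1 and the build mm9; those used here do not give the normalisation of the Pol II values. The authors' Pol II tables hold 1 signed signal value per gene, which is not a read count, so no count model was used and library depth is unknown. The region lists hold a score per region as deposited, used only to rank regions within a list.

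Each signal was divided by the interval width. Libraries were rescaled by the median ratio over 1472 genes above 0.5 per bp in all 8, negatives were set to 0 and 0.5 was added before log2. The trend test was limma 3.58.1 in R 4.3.3, fitted with 3 natural spline terms to the order of the times, and p-values were adjusted by Benjamini-Hochberg over all 4761 genes tested; a change was counted when past 1 on the log2 scale. The code was tested on simulated data. The gene start was the interval start moved back 500 bp by strand. All 8 genes were named. From each pathway list the 2 genes highest and the 2 lowest at 3 h among those past 1, chemokine cluster neighbours, and the 3 genes most alike in course to a varying gene were named too. Members and lists were chosen with earlier results of these data known. The full lymphocyte marker list is not reported here. Alternatives were no rescaling, other pseudocounts, no filter, a background level per library, fewer spline terms, leaving out each library, other windows and score minima, and, added after seeing the data, scaling factors without the 3 h library.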

Additional observations from a re-analysis of the deposited data

Results flagged for a closer look

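Nfkbiz stood at 10.8 signal units per bp in the 3 h Pol II library, in an interval too short to be counted among the measured genes, against -2.56 in the 0 h library. The value lies outside the comparisons because of its 269 bp interval, and it was not tested.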

How the results depend on the processing

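The count of genes called by the limma trend over all 4761 genes was 1 and became 0 with a pseudocount of 0.05, with no filter, with a background level set per library, and without each of the libraries of 0, 3, 8, 16, 24, 36 and 48 h in turn; it stayed at 1 without the 168 h library. Of the feedback and chemokine genes, 0 were called under every alternative run, and the smallest adjusted p was 0.232, for Bcl3 without the 0 h library. With a pseudocount of 5 the genes higher by 1 or more were 2 at 3 h, 1 at 8 h, 0 at 16, 24 and 36 h and 1 at 48 h, and those lower by 1 or more were 0 at every time. With a pseudocount of 0.05 the genes higher were 4 (16 h), 2 (24 h), 3 (36 h) and 2 (168 h). Without rescaling the genes lower were 2 at 8, 24 and 168 h, the added one being Nfkbia each time. With a background level per library they were 2 at 24 h, and the genes higher were 2 at 168 h. Of the single changes compared, 44 moved by more than the median scatter of tested genes about their curves and 243 did not. The 243 include 49 for no filter, which repeat the main values because the filter does not alter a change. Of the 44, 24 moved with a pseudocount of 5 and 17 with 0.05. With scaling factors made without the 3 h library 0 moved. Within 1 kb, the genes with a region in every list were 1 for C/EBPalpha and 0 for C/EBPbeta. Genes near an Egr1 peak, 2 in the main count, were 0 within 1 kb, 5 within 50 kb, 1 by distance to the region centre and 0 with a score of 100 or more. The cause of these differences was not tested. No paired analysis was possible because each time had 1 library and the labels give no replicate numbers. Every change rests on 1 library at 0 h, so leaving it out leaves no change to compute.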
